A study of Homo sapiens with 4 samples.

Results

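IL24 is a cytokine of the IL20 subfamily, and its group is described here across 2 prostate cancer cell lines with and without knockdown of ESS2, a nuclear protein that acts as a transcriptional coregulator. The group holds 7 genes: the cytokine genes IL24, IL20 and IL19, and the receptor genes IL20RA, IL20RB, IL22RA1 and IL10RB. They were chosen by name, and IL24 was picked because its signal is higher with the knockdown in both lines. The values of IL24 are therefore a description with no test. All 7 genes are on the array, with 8 of its 58201 probes, among 25121 genes with a symbol. IL24 has 2 probes and each of the others has 1.

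RNA was measured on 4 1-colour Agilent human expression arrays, 1 for each condition. PC3 and DU145 are established human prostate cancer lines, described in the study as androgen-independent. PC3-shC and DU145-shC cells carried an shRNA against luciferase as the control, and PC3-shESS2 and DU145-shESS2 cells carried an shRNA against ESS2. Per the labels the cells were transduced, and for PC3 the methods describe transfection of an shRNA plasmid followed by puromycin selection. How the DU145 cells were made is not described there. The labels name no other treatment, and 0.1 µg of RNA went on each array. As each condition has 1 array, no difference between arrays of a line has a replicate check. The arrays of a line shared a slide and a scan, and the lines were on different slides, so line and slide cannot be told apart.

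Cytokines of the IL20 subfamily act on epithelial cells. IL19, IL20 and IL24 bind a receptor of IL20RA and IL20RB, and IL20 and IL24 also bind a receptor of IL22RA1 and IL20RB. IL22RA1 pairs with IL10RB to form the receptor of IL22, and IL10RB is also a chain of the receptors of IL10 and of the lambda interferons. These receptors signal through JAK kinases, mainly to STAT3. IL24 is also known as MDA-7, a gene first described in differentiating melanoma cells and studied for its effect on the death of tumour cells.

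The upstream sequences of the 3 members past a 2-fold difference in PC3 are given below because they differ in the motifs they hold. Each is the stretch of 250 bases before the RefSeq start in GRCh38.p14, written 5′ to 3′ on the strand of the gene, with motif matches in capitals. IL24 lies on the plus strand at chr1:206897193-206897442, IL20RA on the minus strand at chr6:137044966-137045215 for the outer of its 2 starts, and IL20RB on the plus strand at chr3:136957733-136957982.
IL24: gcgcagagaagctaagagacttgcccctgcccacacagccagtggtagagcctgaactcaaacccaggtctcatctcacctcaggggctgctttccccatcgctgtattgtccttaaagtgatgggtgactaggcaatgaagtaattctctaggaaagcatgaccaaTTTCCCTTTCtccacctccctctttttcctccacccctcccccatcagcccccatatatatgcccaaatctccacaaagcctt
IL20RA: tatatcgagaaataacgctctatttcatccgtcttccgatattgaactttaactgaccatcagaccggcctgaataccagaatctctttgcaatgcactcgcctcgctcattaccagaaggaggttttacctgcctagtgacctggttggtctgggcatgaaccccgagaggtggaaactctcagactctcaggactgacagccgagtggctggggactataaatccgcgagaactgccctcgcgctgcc
IL20RB: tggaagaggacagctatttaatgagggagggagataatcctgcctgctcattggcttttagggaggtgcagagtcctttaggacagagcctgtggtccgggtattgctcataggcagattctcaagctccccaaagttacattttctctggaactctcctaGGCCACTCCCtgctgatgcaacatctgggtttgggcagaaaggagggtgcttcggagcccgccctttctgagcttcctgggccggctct
All 7 members matched the promoter table, with 10 starts in all. 4 motifs were searched on both strands. The AP-1 motif (TGANTCA) was in 2 of the 10 windows and in 6.6% of 35116 promoters, the NF-κB motif (GGG and CC with 5 bases between) in 4 and 54.4%, the interferon-stimulated response element (GAAA and GAAA with 2 bases between) in 1 and 3.0%, and the STAT motif (TTCNNNGAA) in 1 and 6.6%. The capitals in the IL24 window are the interferon-stimulated response element, read on the other strand, and it begins 83 bases before the start. The capitals in the IL20RB window are an NF-κB match, which begins 89 bases before the start. The IL20RA window printed, its other window and both IL20 windows held none of the 4 motifs. The AP-1 matches lay upstream of IL22RA1 and of 1 of the 2 starts of IL19. A match is a run of letters and does not show binding.

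A signal is the background-subtracted intensity of a spot, and its error is 1 SD from the scanner's error model, which covers the spot and the scan but not the culture. Ratios are shESS2 over shC on the log2 scale, after each array was set to its 75th percentile of signal, which lay between 212 and 290. Between 50.8 and 52.6% of spots were well above background on each array, and 0 were saturated. The ESS2 probe read 133 ± 13.4 in PC3-shC, 53.6 ± 5.65 in PC3-shESS2, 85.7 ± 8.74 in DU145-shC and 17.3 ± 2.36 in DU145-shESS2. ESS2 was thus 2.74-fold lower in the knockdown of PC3 and 5.09-fold lower in that of DU145. These log2 ratios of -1.45 and -2.35 came to -0.90, which is under 2-fold, and -1.13 with normexp background correction. GAPDH had log2 ratios of 0.18 and 0.04, and ACTB of 0.15 and -0.04, of which the DU145 value of ACTB turned positive with other scalings. Among probes spotted 10 times, the log2 ratio between arrays had a median SD over spots of 0.08 in each line, where most of these probes were bright. For the 7 such probes in PC3 and 9 in DU145 with signals under 100 it was 0.20 in PC3 and 0.25 in DU145. The epithelial markers KRT8, KRT18, EPCAM and CDH1 were well above background on all arrays. KLK3, a marker of luminal prostate cells, was not well above background on any array.

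A gene entered the comparison in a line if either of its arrays had it well above background. In PC3 cells, 6 of the 7 members were compared, of which 1 (IL24) was more than 2-fold higher, 2 (IL20RA and IL20RB) were more than 2-fold lower and 2 (IL22RA1 and IL10RB) lay within 2-fold. The sixth, IL20, has only a lower bound under 2-fold, which does not place it. Of all 16764 genes compared there, 3.88% were more than 2-fold higher and 3.87% lower, or 650 and 649 genes. In DU145 cells, 4 members were compared, of which 1 (IL24) was higher and 3 lay within 2-fold. Of 16842 genes there, 2.36% were higher and 2.47% lower. With so few members, no share of theirs is set against these. The split of all PC3 genes moved to 511 higher and 803 lower with scaling to the median and to 792 and 535 with the authors' scaled values, which took the median of all genes from -0.06 to -0.16 and to 0.04. In DU145 it moved from 397 and 416 to 139 and 77 with normexp background correction.

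The IL24 signal was several-fold higher with the knockdown in both lines, and its 2 probes gave similar ratios. The brighter probe read 130 ± 13.3 in PC3-shC, 1520 ± 152 in PC3-shESS2, 107 ± 11.0 in DU145-shC and 568 ± 56.8 in DU145-shESS2. Both shESS2 arrays were therefore above both control arrays, and the controls of the lines were alike, at log2 levels of -1.02 and -0.99 relative to the 75th percentile. The second probe read 17.4 ± 2.98 and 183 ± 18.5 in PC3, and 16.8 ± 2.93 and 75.9 ± 7.91 in DU145, and was well above background on every array. In PC3 the log2 ratio was 3.41 ± 0.21 for the brighter probe, a 10.6-fold difference, and 3.25 ± 0.29 for the other. In DU145 it was 2.37 ± 0.21, or 5.16-fold, and 2.14 ± 0.29. The ratio was 1.04 larger in PC3 than in DU145, a difference that was not tested. As these are bulk samples, more cells that make IL24 and more RNA per cell cannot be told apart.

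IL24 stood near the top of each comparison. It was picked for being higher in both lines, so its ranks only describe it. Counting genes that both arrays of the line detected well above background, it had the 20th highest ratio of 15763 in PC3 and the 13th highest of 15933 in DU145. Of 14686 genes well above background on all arrays, 28 (0.191%) were more than 2-fold higher in both lines. Ordered by the smaller of the 2 ratios, IL24 came second after IL6, the cytokine that also signals to STAT3, whose log2 ratios were 2.62 and 2.48. IL6 was named after its values were seen. With normexp background correction the IL24 ratio was 2.78 in PC3 and 1.84 in DU145, the lowest of any setting tried.

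IL20 and IL19, whose genes lie beside IL24 on chromosome 1, were at or near background. The IL20 probe read 6.24 ± 2.27 in PC3-shC, 13.2 ± 2.6 in PC3-shESS2, 2.1 ± 2.1 in DU145-shC and 9.31 ± 2.19 in DU145-shESS2. It was well above background only on the PC3-shESS2 array. Against the lowest signal well above background on the PC3-shC array, the knockdown array of PC3 had IL20 at least 1.34-fold higher, and no fold is given for DU145. That log2 bound of 0.42 was 0.04 with normexp correction and 0.94 with the plain signal of dim spots. The IL19 probe read between 1.91 and 2.12 and was not well above background on any array, so no fold is given for it.

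The receptor of IL20RA and IL20RB was lower at both chains in PC3 cells with the knockdown. IL20RA, the alpha chain, read 169 ± 17.1 in PC3-shC and 91.0 ± 9.34 in PC3-shESS2, a log2 ratio of -1.03 ± 0.21 or 2.05-fold lower. In DU145 it read 2.04 and 1.86 and was not well above background on either array. IL20RB, the beta chain that both receptors of IL24 share, read 452 ± 45.3 in PC3-shC, 204 ± 20.6 in PC3-shESS2, 77.3 ± 8.06 in DU145-shC and 72.9 ± 7.58 in DU145-shESS2. Its log2 ratio was -1.29 ± 0.21 in PC3, or 2.44-fold lower, and -0.12 ± 0.21 in DU145, within its error. The PC3-shESS2 array still had more IL20RB signal than both DU145 arrays. Of the genes detected well above background by both PC3 arrays, 501 had a lower ratio than IL20RA and 314 a lower ratio than IL20RB. IL20RA lies close to the 2-fold line, and came to -0.95 with the authors' scaled values and -0.80 with normexp correction. IL20RB stayed past 2-fold under all settings, between -1.39 and -1.06.

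IL22RA1 and IL10RB were detected on every array and lay within 2-fold. IL22RA1, the chain that pairs with IL20RB for IL20 and IL24 and with IL10RB for IL22, read 293 ± 29.4 and 349 ± 35.0 in PC3, and 185 ± 18.5 and 202 ± 20.2 in DU145. Its log2 ratios were 0.11 ± 0.20 and 0.09 ± 0.20, both within their errors. IL10RB, the shared chain of several receptors of the family, read 564 ± 56.4 in PC3-shC, 880 ± 88.0 in PC3-shESS2, 414 ± 41.5 in DU145-shC and 423 ± 42.4 in DU145-shESS2. Its log2 ratio was 0.50 ± 0.20 in PC3, or 1.42-fold higher, and -0.01 ± 0.20 in DU145, where the sign turned with other settings.

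In the control arrays the lines differed most in the IL20RA and IL20RB chains. IL20RA was at least 15.7-fold higher in PC3-shC than in DU145-shC, where it was not well above background. IL20RB was 4.71-fold higher in PC3-shC. IL22RA1 was 1.28-fold, IL10RB 1.1-fold and IL24 1.02-fold apart between the lines. There is no replicate error for these differences, and the slides differ as well.

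The mean knockdown difference of the receptors over both lines came from a limma fit that blocked on the line and left 1 residual degree of freedom. Its standard errors are the spread between the lines of each gene, moderated towards that of all genes. IL20 and IL19 did not enter it. Of 17126 genes, 0 passed an adjusted p of 0.05 (0%), 1047 had an unadjusted p under it, and the lowest adjusted p was 0.746. IL20RB had a mean log2 ratio of -0.71 (SE 0.35, 95% interval -1.69 to 0.27) with a limma adjusted p of 0.746. IL20RA had -0.58 (SE 0.29, interval -1.41 to 0.24) with a limma adjusted p of 0.746, and its DU145 values in the fit stand at the background floor. IL10RB had 0.25 (SE 0.22, interval -0.38 to 0.87) and IL22RA1 0.10 (SE 0.18, interval -0.40 to 0.60). Their limma adjusted p values were 0.788 and 0.884. Over the settings tried, the adjusted p ran from 0.493 to 1 for IL20RA, 0.509 to 1 for IL20RB, 0.582 to 1 for IL10RB and 0.117 to 1 for IL22RA1.

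Of 9 IL10-family ligand genes, 6 were compared in PC3, and 4 were more than 2-fold higher. This count supports no direction, since IL24 was picked for being higher, and IL20, IL26 and IFNL3 entered only through the PC3-shESS2 array and could not have come out lower. The other higher ligands were the lambda interferons, antiviral cytokines that use IFNLR1 and IL10RB. IFNL1 read 15.6 in PC3-shC and 402 in PC3-shESS2, a log2 ratio of 4.55, or 2.74 with normexp correction. IFNL2 read 64.9 and 1060 there, a ratio of 3.89, or 3.08 with normexp correction. In DU145 it read 20.4 and 21.6, a ratio of 0.04 that turned negative with normexp correction. IFNL3 was higher in PC3-shESS2 by at least 12.4-fold, a log2 bound of 3.63 that came to 1.37 with normexp correction. In DU145, neither IFNL1 nor IFNL3 was well above background. IFNL2 and IFNL3 are near-identical copies, so their probes may share RNA. IL10 and IL22 were not well above background on any array. In DU145, 2 ligands were compared, of which IL24 was higher and IFNL2 lay within 2-fold.

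Of 12 class II cytokine receptor genes, the 4 member receptors included, 10 were compared in PC3, with 1 higher and 3 lower. Their median log2 ratio was -0.27 against -0.06 for all genes, and came to -0.37 with median scaling and -0.13 without the filter on dim genes. Of the 10 genes, IFNGR1, the ligand-binding chain of the interferon gamma receptor, read 2670 in PC3-shC and 1270 in PC3-shESS2, 2.32-fold lower. It had a ratio of -0.09 in DU145. F3, the coagulation receptor tissue factor, read 940 and 4380 in PC3, 4.23-fold higher, and 542 and 338 in DU145, a ratio of -0.72. The IFNLR1 chain had ratios of 0.74 and 0.27, of which the DU145 ratio turned negative with the mean of its probes. In PC3, 2 of its 3 probes were well above background on both arrays, and the other of these was past 2-fold, at 1.20. In DU145, 10 genes of this list were compared and all lay within 2-fold, with a median of -0.09 against -0.02 for all genes.

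**Figure D1:**
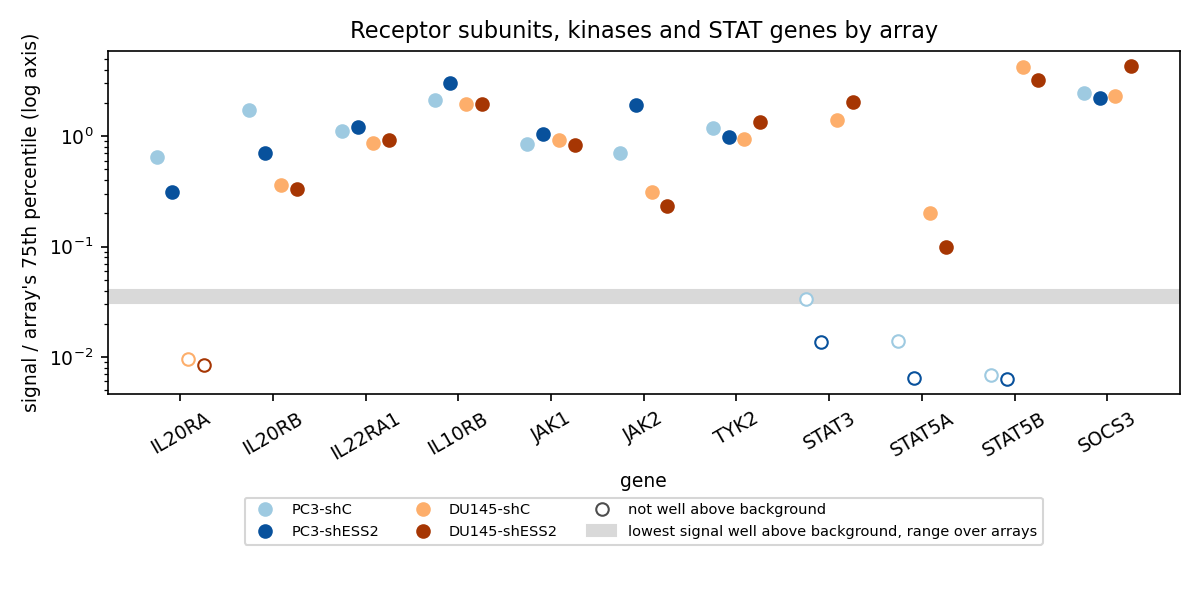
Signal of the receptor chains and of the JAK, STAT and SOCS3 genes on the 4 arrays, divided by the array's 75th percentile (log axis), with open points where the probe was not well above background. The IL20RA and IL20RB chains are lower in PC3-shESS2 than in PC3-shC, and STAT3, STAT5A and STAT5B are above the grey band in DU145 only.

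Below the receptors, 9 of 12 JAK-STAT genes were compared in PC3, with 1 higher and 0 lower, and 12 in DU145, with 0 higher and 1 lower. JAK2, a kinase of cytokine receptors, read 184 and 559 in PC3, a log2 ratio of 1.46, and -0.45 in DU145. STAT3, the main STAT of the group's receptors, read 8.87 and 3.94 in PC3, not well above background, and 299 and 443 in DU145, a ratio of 0.53. STAT5A and STAT5B were likewise not well above background in PC3. In DU145, STAT5A read 42.8 and 21.5, a ratio of -1.03 that came to -0.42 with normexp correction, and STAT5B had a ratio of -0.39. SOCS3, a feedback inhibitor that STAT3 induces, had ratios of -0.13 in PC3 and 0.89 in DU145. The median of the list was 0.15 in PC3, which came to -0.12 without the filter on dim genes, and -0.13 in DU145.

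Epithelial genes known as targets of the subfamily did not move one way. Of 18 such genes, 16 were compared in PC3, with 3 higher, 7 lower and a median log2 ratio of -0.89. The higher genes were the stress keratins KRT17 (4.77) and KRT16 (3.33, and 2.67 with normexp correction), whose sequences are much alike, and KRT6A (1.73). The lower genes were the inflammatory cytokine IL1B (-3.93), the calgranulins S100A8 (-3.25), S100A9 (-2.51) and S100A12 (-2.74, and -1.92 with normexp correction), the iron-binding protein LCN2 (-3.25), the chemokine CCL20 (-3.23) and the psoriasin gene S100A7 (-1.21, and -0.42 with normexp correction). SERPINB3 and SERPINB4, near-identical inhibitors of proteases, had ratios of -0.94 and -0.84. In DU145, 9 were compared, with 1 higher and 4 lower. CCL20 (-2.75) and LCN2 (-2.55) were lower there as in PC3, at -1.81 and -1.71 with normexp correction, and CXCL8 (-2.17) and the collagenase MMP1 (-1.26) were lower in DU145 against 0.28 and 0.12 in PC3. S100A9 was higher in DU145, at 1.75, or 0.52 with normexp correction, from signals of 15.3 and 52.8. The DU145 median was 0.09, and it was -0.58 when only genes detected on both arrays were kept.

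Genes of endoplasmic reticulum stress and cell death, which IL24 protein is known to engage in tumour cells, lay mostly within 2-fold. In PC3, 15 of 15 were compared, with 2 higher, 1 lower and a median log2 ratio of 0.26. GADD45A, a stress-response gene, was at 1.23, and PPP1R15A, which restores translation after stress, at 1.13. EIF2AK2, the kinase PKR that senses double-stranded RNA, read 8060 and 3030 and was 2.93-fold lower. DDIT3, a death-promoting factor of this stress response, was just within 2-fold at 0.99, and past it at 1.08 with the authors' scaled values. In DU145, 14 were compared, with 1 higher, 0 lower and a median of 0.01, which turned negative without the filter on dim genes. The higher gene was EIF2AK3, the stress kinase PERK, at 1.01, which came to 0.63 with normexp correction. HSPA5, the chaperone BiP, was at 0.05 in each line, with a sign that turned in PC3 under median scaling.

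AP-1 is a dimer of FOS, JUN and ATF proteins that acts on many cytokine promoters. In PC3, 10 of 10 of its genes were compared, with 3 higher, 0 lower and a median of 0.64, which was 0.23 with normexp correction and 0.44 when only genes detected on both arrays were kept. FOSB entered through the PC3-shESS2 array alone. ATF3 read 1880 and 12400, a log2 ratio of 2.58, but its 4 probes ranged from 0.30 to 2.66. BATF was at 1.39, or 0.28 with normexp correction, and FOSB was at least 2.82-fold higher. In DU145, 9 were compared, with 3 higher, 0 lower and a median of 0.28, which was 0.11 without the filter on dim genes. FOS was at 1.50, FOSB at 1.40 and JUNB at 1.06, against 0.83 for FOS and 0.08 for JUNB in PC3, of which the JUNB value turned negative under median scaling. FOSB was under 2-fold with normexp correction in each line. The difference between the lines was not tested for any list.

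Neighbouring genes were taken from the RefSeq order, with 3 on each side of IL24 and of each receptor. They hold 30 genes, of which 21 were compared in PC3, with 1 higher and 2 lower, and 19 in DU145, with 0 higher and 1 lower. Beside IL24, the next gene FCMR, a receptor for IgM, read 55.8 and 130 in PC3, a log2 ratio of 1.08, and 81.3 and 127 in DU145, a ratio of 0.60. Median scaling, quantile normalization and normexp correction put the PC3 value under 2-fold. IL20 is described above, and the other neighbours of IL24, which are IL10, IL19, PIGR and FCAMR, were not well above background on any array. Near IL20RA, MAP3K5, a stress-activated kinase, read 1060 and 302 in PC3, 3.87-fold lower, and 415 and 418 in DU145, and IFNGR1 was also lower in PC3 as above. PEX7, between MAP3K5 and IL20RA, was at -0.58 in PC3. Around IL20RB, the compared neighbours STAG1, SLC35G2, NCK1 and DZIP1L had PC3 ratios from 0.11 to 0.83, all of the opposite sign to IL20RB. OLIG1, a transcription factor near IL10RB, was at least 4.96-fold lower in DU145-shESS2, a log2 value of -2.31 that came to -0.64 with normexp correction. The brightest probes of the neighbours of IL22RA1 lay within 2-fold in both lines, and another probe of IFNLR1 was at 1.20 in PC3.

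The 5 genes whose levels over the 4 arrays ran most like those of IL24 were STARD4, LOX, SELENOP, ISG20 and CDH15, among 14682 genes. Likeness was the Euclidean distance between log2 levels after each gene's own mean was subtracted, so 0 is the same pattern. The distance also counts differences in level between the lines, so it does not rank genes by their knockdown ratios alone. IL6, with ratios of 2.62 in PC3 and 2.48 in DU145, is not among the 5. STARD4, which carries cholesterol within cells, was closest at a distance of 1.22, with log2 ratios of 2.14 in PC3 and 1.29 in DU145, the latter at 0.96 with normexp correction. LOX, the enzyme that crosslinks collagen, lay at 1.33 with ratios of 1.69 and 1.84, which came to 1.05 and 0.83 with normexp correction. SELENOP, the selenium carrier of plasma, lay at 1.46 with ratios of 1.36 and 2.47, and its second probe gave 1.24 and 2.86. ISG20, an interferon-induced exonuclease, lay at 1.51 with ratios of 2.80 and 0.32, and the cadherin CDH15 at 1.52 with 1.92 and 0.88. The ranking rests on 4 arrays only.

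The marker lists of cell types gave these values. The summed signal of 5 leukocyte genes over each array's 75th percentile was 1.14, 0.482, 1.03 and 1.56 on the PC3-shC, PC3-shESS2, DU145-shC and DU145-shESS2 arrays, on which 2, 3, 2 and 4 of the 5 were well above background. PTPRC, the pan-leukocyte marker CD45, was well above background on every array, with log2 ratios of -0.13 in PC3 and 0.10 in DU145, of which the latter turned negative with normexp correction. Within the sum, CD14 was 4.45-fold lower in PC3-shESS2, a log2 ratio of -2.16 that came to -1.52 with normexp correction, and had a ratio of 0.63 in DU145, and CD3E was not well above background anywhere. The sum of the 4 epithelial markers was 449 and 463 in PC3 and 116 and 108 in DU145, where EPCAM was 6.11-fold lower with the knockdown. The sum of the 3 luminal genes ran from 0.826 to 1.44, and TMPRSS2 among them was 2.67-fold lower in PC3-shESS2, a log2 ratio of -1.42 that came to -0.75, under 2-fold, with normexp correction. The part of these differences in the values of the IL24 group was not tested.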

How the data were processed

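RNA of 4 cultures was hybridized to 1-colour (Cy3) Agilent arrays. The authors deposited the scanner output of Feature Extraction (12.1.0.3 for PC3 and 12.0.3.1 for DU145, per the file headers), in which the processed intensity of a spot has its background subtracted and no scaling between arrays. The authors also deposited scaled intensity values, which equal that signal times 1 constant per array (3.65, 3.52, 6.17 and 6.09 for PC3-shC, PC3-shESS2, DU145-shC and DU145-shESS2). The methods name GeneSpring without settings.

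Each processed signal was divided by the 75th percentile of the 60901 non-control spots of its array and put on the log2 scale. Outlier spots were left out, repeated spots of a probe were averaged, and the brightest probe on average stood for its gene. Probe accessions gave 35080 of 58201 probes a symbol through RefSeq. A signal not well above background was raised to the lowest signal well above it if it lay under that, and a fold with such a signal is a lower bound. Errors of ratios combine the scanner's errors of both spots. The number of arrays limits the precision, and no test was made within a line. The limma fit had the line as a block, took genes that 2 or more arrays detected well above background, and used Benjamini-Hochberg adjustment.

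The genes named are the members, ESS2, GAPDH and ACTB, list genes past 2-fold in either line or on which a count turns, markers, neighbours, and the 5 genes most like IL24. Outside this rule, IL6 and the list genes IL22, IL26, STAT3, STAT5B, SOCS3, SERPINB3, SERPINB4, HSPA5 and DDIT3 were named after their values were seen. The members and lists were chosen with earlier results of these data known. Alternatives were quantile normalization, scaling to the median, normexp with an offset of 50 (on the median spot signal, as the mean was not used here), dim spots at their plain signal, averaging over a gene's probes, keeping outlier spots, the authors' scaled values, other filters on dim genes and, for limma, no block. The calculations were tested on simulated data. The tools were limma 3.58.1 in R 4.3.3, and pandas 2.3.3, numpy 2.4.6 and matplotlib 3.10.9 in Python 3.11.15. CD68 was not matched and is not analysed here, and 2 further genes of the lists are not reported here and were left out of the counts.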

Additional observations from a re-analysis of the deposited data

Results flagged for a closer look

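Several genes had log2 ratios of opposite sign in the 2 lines, and the difference was not tested for any of them, since each condition has 1 array. Among the members, IL10RB was at 0.50 in PC3 and -0.01 in DU145, a difference of 0.51, and its DU145 sign turned with other settings. Among the receptors and signalling genes, F3 differed by 2.80 (2.08 against -0.72) and JAK2 by 1.91 (1.46 against -0.45). Among the epithelial targets, S100A9 differed by -4.26 (-2.51 against 1.75), S100A12 by -2.83 (-2.74 against 0.09), MMP1 by 1.38 (0.12 against -1.26) and CXCL8 by 2.45 (0.28 against -2.17). GADD45A differed by 1.25 (1.23 against -0.03), PPP1R15A by 1.16 (1.13 against -0.03) and the leukocyte marker CD14 by -2.79 (-2.16 against 0.63). The DU145 signs of S100A12 and GADD45A also turned under some settings. The DU145 ratios of IL10RB, S100A12, GADD45A and PPP1R15A are all small, so their signs say little.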

How the results depend on the processing

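The direction of IL24 held in both lines under all settings tried, from 2.78 to 3.49 on the log2 scale in PC3 and from 1.84 to 2.58 in DU145. Normexp correction gave 2.78 and 1.84, and quantile normalization gave 2.58 in DU145. The count of all genes past 2-fold was 1299 in PC3 and 813 in DU145, and came to 571 and 216 with normexp correction. The count of members past 2-fold was 2 or 3 in PC3, according to whether IL20RA passed, and 1 in DU145. The limma fit gave 0 genes in every setting, with 1047 at an unadjusted p under 0.05 as reported, 23 without the line as a block, 1124 over genes well above background on all arrays and 8912 without a filter. The slide as a block is the same model, as each line had its own slide. The block on the line pairs the arrays of each line and is the only paired fit, as the labels carry no replicate numbers. With 1 array for each condition, no replicate could be left out. Signal over background limits IL20, IL19 and, in DU145, IL20RA.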
